A study of Mus musculus with 55 samples.

Results

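The comparison described here is of mouse forebrain neurons silenced for 48 h with tetrodotoxin (TTX) against cultures left to their own spontaneous activity, both labelled 21 days in vitro (21DIV). It took the 4 libraries labelled 21DIV_BasalTTX_0min (BasalTTX) and the 3 labelled 21DIV_Basal_0min (Basal), chosen by these labels, which makes 7 of the 55 libraries of the series. The study asked how activity-driven transcription depends on neuronal maturation and on the stimulus, with KCl, bicuculline (Bic) and TTX withdrawal (TTXw) as stimuli. A separate maturation experiment gave Bic together with 4-aminopyridine, and its mature cultures (23DIV) enter a comparison further below. The BasalTTX and Basal libraries belong to the stimuli experiment. Both groups were mixed-sex CD1 cultures of embryonic cortex and hippocampus, grown in Neurobasal-A with B27, and mature cultures were used between 19 and 23 days in vitro. BasalTTX wells received 1 uM TTX for 48 h and no washout is labelled for them, whereas Basal wells carry no drug. The control wells of the withdrawal protocol were washed like the treated ones, and the labels do not say which wells these were. Sequences were counted at the 3′ end (CEL-Seq2), and levels are given as CPM, which scale counts to library size, with TMM factors. The 7 libraries held 1388872 to 3474370 counts on named genes, with 1388872 to 2685419 in BasalTTX and 2612633 to 3474370 in Basal. The p-values measure the spread between libraries of the same group, estimated together over all 27 libraries of the stimuli experiment. The labels do not say whether replicates were separate dissections, so this spread may be technical. Basal replicate 5 carries another library code letter (B) than the other 6 (A), whose meaning is not given, and its title numbers it 5 where its description and column number it 2.

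TTX blocks voltage-gated sodium channels and thereby action potentials, so a silenced network keeps only spontaneous vesicle release. Firing raises calcium in the neuron, which through CREB, SRF and MEF2 switches on immediate early genes (IEGs) and then effector genes that act at synapses or are secreted. Long silencing is also the classic way to induce homeostatic synaptic scaling, in which neurons strengthen their excitatory input.

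Most activity-regulated genes were lower in the silenced cultures, and most astrocyte and oligodendrocyte lineage markers were higher. Of 12023 genes tested, 2602 were DEG (21.6%), for which edgeR's quasi-likelihood p, adjusted after Benjamini-Hochberg, had to lie below 0.05 and the fold change had to reach 1.5: 1278 were lower in BasalTTX (10.6%) and 1324 higher (11%). Among the lower genes 149 fell at least 4-fold and 49 at least 8-fold, and among the higher ones 133 rose at least 4-fold and 25 at least 8-fold. The median log2 fold change over all genes tested was 0.01. Groups without overlap were common: every BasalTTX library lay above every Basal one in 16.8% of all genes tested, and below in 18.4%. Of the gene lists examined, those with the lowest medians were the IEG transcription factors, microglial markers (4 tested), cholesterol synthesis, secreted effectors and MAPK feedback genes, and those with the highest were oligodendrocyte lineage and astrocyte markers. Genes of neurons that rose included Nptx1, Nos1, Gria1 and Hrk. Throughout, the value after ± beside a log2 fold change is its standard error (SE).

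The promoters of some genes that carry these results are shown first, because cyclic AMP response elements, to which CREB binds, are a well known link between firing and peptide genes. The 4 sequences printed here hold the full element TGACGTCA, printed in capitals, and were read from RefSeq promoters of GRCm38.p6, the same assembly as mm10, from 250 bases before to 50 after the transcript start. Scg2 (chr1:79439977-79440276, minus strand), Pcsk1 (chr13:75089607-75089906, plus strand) and Cartpt (chr13:99900634-99900933, minus strand) fell under TTX, whereas Sst (chr16:23890795-23891094, minus strand) was no DEG.
Scg2: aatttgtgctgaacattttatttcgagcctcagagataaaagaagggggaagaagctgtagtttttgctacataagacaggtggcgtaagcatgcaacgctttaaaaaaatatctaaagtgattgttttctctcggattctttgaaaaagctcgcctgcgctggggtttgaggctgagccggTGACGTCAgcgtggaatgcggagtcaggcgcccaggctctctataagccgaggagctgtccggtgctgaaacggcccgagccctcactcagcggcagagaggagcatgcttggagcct
Pcsk1: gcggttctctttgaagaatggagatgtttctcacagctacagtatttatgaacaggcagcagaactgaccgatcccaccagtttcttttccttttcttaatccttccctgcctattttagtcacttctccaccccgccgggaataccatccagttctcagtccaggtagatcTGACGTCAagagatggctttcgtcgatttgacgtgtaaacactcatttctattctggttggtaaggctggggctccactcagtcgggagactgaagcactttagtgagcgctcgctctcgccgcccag
Cartpt: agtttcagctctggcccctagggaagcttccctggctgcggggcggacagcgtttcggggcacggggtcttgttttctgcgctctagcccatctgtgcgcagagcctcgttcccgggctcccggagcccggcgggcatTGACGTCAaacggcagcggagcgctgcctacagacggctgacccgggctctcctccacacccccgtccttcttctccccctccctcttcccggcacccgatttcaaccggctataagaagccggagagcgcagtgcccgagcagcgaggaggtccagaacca
Sst: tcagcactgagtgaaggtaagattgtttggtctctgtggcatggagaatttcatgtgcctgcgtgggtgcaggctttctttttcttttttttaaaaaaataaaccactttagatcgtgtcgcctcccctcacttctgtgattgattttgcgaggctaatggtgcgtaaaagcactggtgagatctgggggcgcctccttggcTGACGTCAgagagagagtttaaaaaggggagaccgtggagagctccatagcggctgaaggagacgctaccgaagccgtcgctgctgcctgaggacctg
The element began 68 bases before the start in Scg2, 78 in Pcsk1, 112 in Cartpt and 48 in Sst. It reads the same on both strands, and was present in 2.03% of all 27025 genes with a promoter in the table and in 3.79% of the 9598 tested genes that had one. The share was 4.37% (44 of 1008) among genes that fell and 1.74% (18 of 1032) among genes that rose. Among genes that fell at least 4-fold it was 6.61% (8 of 121), and none of the 98 that rose at least 4-fold held it. Mean GC content of the promoters was 62.0% for genes that fell and 60.8% for genes that rose. No test was run on these shares.

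Secreted and synaptic effectors, the genes that carry activity from the nucleus to the synapse, were mostly lower in the silenced cultures. Of the activity-regulated synaptic and secreted effectors, 27 were tested, of which 20 fell, 1 rose and 6 were no DEG, with a median log2 fold change of -1.24 against 0.01 over all genes. Bdnf (chr2:109674700-109727043), the neurotrophin that supports synapse growth, stood at 634, 789 and 404 CPM in the 3 Basal libraries and at 32.2, 24.8, 27.3 and 23.3 CPM in the 4 BasalTTX libraries. Every silenced library lay far below every Basal one, with a log2 fold change of -4.52 ± 0.19 and an adjusted p of 1.7e-20 (edgeR). Scg2 (chr1:79434366-79440026), a granin of dense-core vesicles, measured 1045, 1049.9 and 745 CPM in Basal and 79.6, 65.9, 69.3 and 63.9 CPM in BasalTTX. The groups did not overlap, and the log2 fold change was -3.77 ± 0.14 with an adjusted p of 6.0e-23 (edgeR). Vgf (chr5:137025301-137033351), the precursor of several secreted peptides, went from 2500.3, 2739.9 and 2209 CPM in Basal to 313, 332, 211 and 204 CPM in BasalTTX. That was a log2 fold change of -3.23 ± 0.15, again with no overlap.

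Several genes that process such cargo or act beside it also fell. Pcsk1, the prohormone convertase that cleaves granins and neuropeptide precursors, read 46.7, 50.4 and 33.8 CPM in Basal and 8.55, 7.51, 6.30 and 6.46 CPM in BasalTTX, a log2 fold change of -2.61 ± 0.20. Scg3, another granin, had a log2 fold change of -1.78 ± 0.12. The retrograde factor Inhba, an activin subunit, and Nptx2, the pentraxin that gathers AMPA receptors, had log2 fold changes of -3.02 ± 0.36 and -2.67 ± 0.24, both DEG. Arc, which drives AMPA receptor uptake and was named here after its values were seen, as were Inhba and Nptx2, fell less, from 25.02, 35.3 and 31.6 CPM to 13.2, 13.9, 12.6 and 10.8 CPM. Homer1, a scaffold gene, had a log2 fold change of -0.44 ± 0.12 and was no DEG. Nptx1, the pentraxin related to Nptx2, was the one DEG of this list that rose. It measured 56.2, 75.8 and 62.7 CPM in Basal and 133.6, 155, 211 and 234 CPM in BasalTTX, with no overlap and a log2 fold change of 1.51 ± 0.17.

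**Figure D1:**
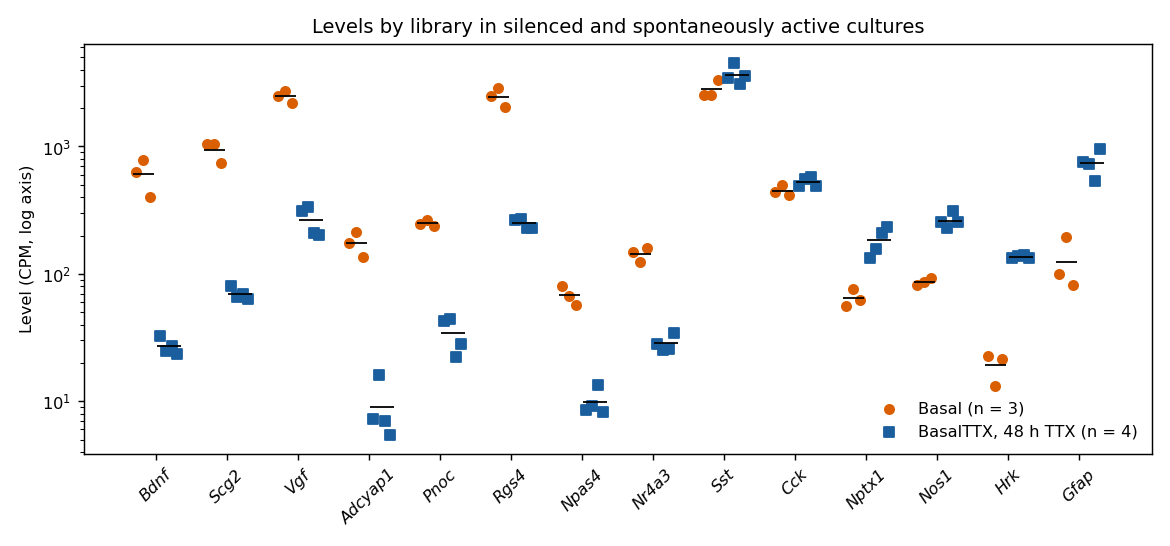
Level of 14 genes in each library (CPM, log axis), with circles for the 3 Basal libraries, squares for the 4 BasalTTX libraries and short lines for the group means. From Bdnf to Nr4a3 the silenced libraries all lie below the Basal ones, Sst and Cck overlap, and Nptx1, Nos1, Hrk and Gfap lie above.

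Neuropeptide genes split by peptide. Among them 18 were tested, of which 9 fell, 1 rose and 8 were no DEG, at a median log2 fold change of -0.92. Adcyap1, which encodes PACAP, stood at 174, 212 and 136 CPM in Basal and at 7.24, 16.2, 7.00 and 5.39 CPM in BasalTTX. All 4 silenced libraries were lower, replicate 2 being the highest of them, and the log2 fold change was -4.32 ± 0.20 (adjusted p 2.7e-19, edgeR). Pnoc, the precursor of nociceptin, fell from 246, 263 and 238 CPM to 42.8, 44.5, 22.4 and 28.4 CPM, a log2 fold change of -2.86 ± 0.16. Cartpt, which encodes the CART peptide, and Crhbp, which binds corticotropin-releasing hormone, had log2 fold changes of -3.12 ± 0.36 and -1.66 ± 0.16. Crh itself gave 0 to 2 counts in each silenced library. Over the groups these were 5 against 144 counts, a ratio of Basal over BasalTTX of 24.0 (95% exact interval 10.04 to 74.9) that covers counting error only.

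Among the classic interneuron peptides, Sst, Npy and Cck were no DEG. Sst measured 2543, 2552 and 3355 CPM in Basal and 3429.8, 4554, 3079 and 3577 CPM in BasalTTX, ranges that overlap. Its log2 fold change was 0.38 ± 0.14, with an adjusted p of 0.043 (edgeR) but short of the 1.5-fold limit. The cyclic AMP response element in its promoter is shown above. Npy leaned lower, at -0.55 ± 0.21 with an adjusted p of 0.039 (edgeR), and also fell short of the 1.5-fold limit. Cck had a log2 fold change of 0.23 ± 0.11. Npy passed both thresholds without BasalTTX replicate 1 (-0.61), BasalTTX replicate 2 (-0.59) or Basal replicate 1 (-0.67). Tac2, which encodes neurokinin B, was the only tested peptide gene that rose, with 39.4, 40.8 and 40.5 CPM in Basal and 76.3, 65.9, 57.4 and 94.4 CPM in BasalTTX.

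Most IEGs that encode transcription factors were lower in the silenced cultures. In this list 28 were tested, of which 20 fell, 1 rose and 7 were no DEG, and the median log2 fold change was -1.62. Nr4a3, an orphan nuclear receptor, measured 149.5, 124.8 and 159 CPM in Basal and 28.3, 25.4, 25.9 and 34.5 CPM in BasalTTX. Npas4, the neuron-specific factor that tunes inhibitory synapses, measured 79.8, 66.6 and 56.8 CPM and 8.55, 9.24, 13.3 and 8.26 CPM. For both, every silenced library was below every Basal one, with log2 fold changes of -2.31 ± 0.13 (adjusted p 5.7e-17, edgeR) and -2.82 ± 0.19 (adjusted p 9.5e-15, edgeR). Fosl2, an AP-1 subunit, and Atf3, a stress-responsive leucine zipper factor, changed by -2.58 ± 0.21 and -2.25 ± 0.22 on the log2 scale. Fos and Egr1, named after their values were seen, changed by -2.31 ± 0.25 and -1.72 ± 0.21. Fos stood at 5.92, 19.1, 6.30 and 5.39 CPM in BasalTTX, so replicate 2 stood above the rest but under the Basal values of 36.8, 47.5 and 50.1 CPM. Jun, at -0.38 ± 0.13, and Nr4a2, at -0.87 ± 0.36, were no DEG, although Nr4a2 was one at -1.05 without BasalTTX replicate 3. Klf10, a factor downstream of TGF-beta, was the one that rose, at 0.95 ± 0.23.

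Most negative regulators of the same signalling were lower too. Of the MAPK and growth arrest feedback genes 22 were tested, of which 16 fell, 1 rose and 5 were no DEG, with a median log2 fold change of -1.24. Rgs4 (chr1:169741477-169747642), which shortens G protein signalling, measured 2501, 2860.2 and 2034 CPM in Basal and 266, 270.4, 227 and 231 CPM in BasalTTX. It had the smallest adjusted p of the listed genes, 2.8e-23 (edgeR), at a log2 fold change of -3.31 ± 0.12. Its relative Rgs2 went from 391.8, 428 and 251 CPM to 57.3, 41.02, 57.4 and 49.2 CPM, a log2 fold change of -2.81 ± 0.15. The MAPK phosphatases Dusp6 and Dusp1 changed by -2.67 ± 0.19 and -2.40 ± 0.22, whereas Dusp14, at 0.36 ± 0.19, was no DEG. Spred1, an inhibitor of RAS signalling, went the other way, at 145, 182 and 174 CPM in Basal and 250.1, 245, 337 and 294 CPM in BasalTTX.

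Most transcripts of cholesterol synthesis and glycolysis were lower in the silenced cultures. Of the cholesterol synthesis genes 22 were tested, of which 17 fell, 0 rose and 5 were no DEG and the median log2 fold change was -1.31. Hmgcs1, at the entry of the pathway, measured 1162, 1154 and 938 CPM in Basal and 272, 215, 336 and 282 CPM in BasalTTX. The groups stood clear of each other, with a log2 fold change of -1.97 ± 0.12, while Msmo1, Sqle and Mvd further down changed by -1.55, -1.67 and -2.06. Of the glycolysis and hypoxia genes 24 were tested, of which 17 fell, 0 rose and 7 were no DEG at a median of -0.88. Ldha, lactate dehydrogenase A, stood at 1869, 1629.9 and 1589 CPM in Basal and 730.4, 585, 785 and 709 CPM in BasalTTX, a log2 fold change of -1.27 ± 0.11. The neuronal glucose transporter Slc2a3 and the barrier type Slc2a1, the latter named after its value was seen, changed by -0.96 ± 0.11 and -1.47 ± 0.19, and Ldhb, the sister gene of Ldha, by 0.50 ± 0.12, which made it no DEG. Pfkp, Bnip3 and Tpi1 fell, with log2 fold changes of -1.16, -1.27 and -0.90.

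The hypoxia response element core ACGTG, searched on both strands, shares only ACGT with TGACGTCA and was in 73.9% of the promoters of the glycolysis and hypoxia list (17 of 23 with a promoter). It was in 21.8% of all promoters, 29.6% of those of tested genes, 35.5% of those that fell and 21.7% of those that rose. The Ldha promoter (chr7:46845554-46845853, plus strand) is shown with these letters in capitals on either strand, because it holds this core 5 times and also the cyclic AMP response element, in lower case, beginning 12 bases before the start. Where the capitals read CACGTG, which is also the E-box, the core was counted on both strands.
Ldha: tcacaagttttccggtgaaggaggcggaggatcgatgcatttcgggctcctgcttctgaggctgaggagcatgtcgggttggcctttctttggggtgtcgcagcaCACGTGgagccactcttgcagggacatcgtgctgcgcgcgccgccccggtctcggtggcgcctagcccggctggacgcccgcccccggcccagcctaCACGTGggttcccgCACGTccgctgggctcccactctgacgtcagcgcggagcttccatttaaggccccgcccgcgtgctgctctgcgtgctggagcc
The sterol regulatory element TCACCCCAC was found in 1 of 15 promoters of the cholesterol list, in 0.636% of those of tested genes and in 0.614% of all promoters. For AP-1 (TGANTCA) the shares were 7.94% of genes that fell, 7.36% of genes that rose, 5.95% of tested genes and 8.97% of all promoters. For the serum response element they were 1.69%, 1.16%, 1.52% and 1.81%.

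Chaperones fell in part. Of the heat shock and ER chaperone genes 27 were tested, of which 11 fell, 0 rose and 16 were no DEG, at a median of -0.54. Hspa5, the ER chaperone BiP, named after its value was seen, and Hsph1, a cytosolic chaperone, changed by -0.93 ± 0.12 and -0.998 ± 0.12, and the ER stress factor Ddit3 by -1.86 ± 0.21. Calr, calreticulin, was at -0.28 ± 0.10 and no DEG.

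**Figure D2:**
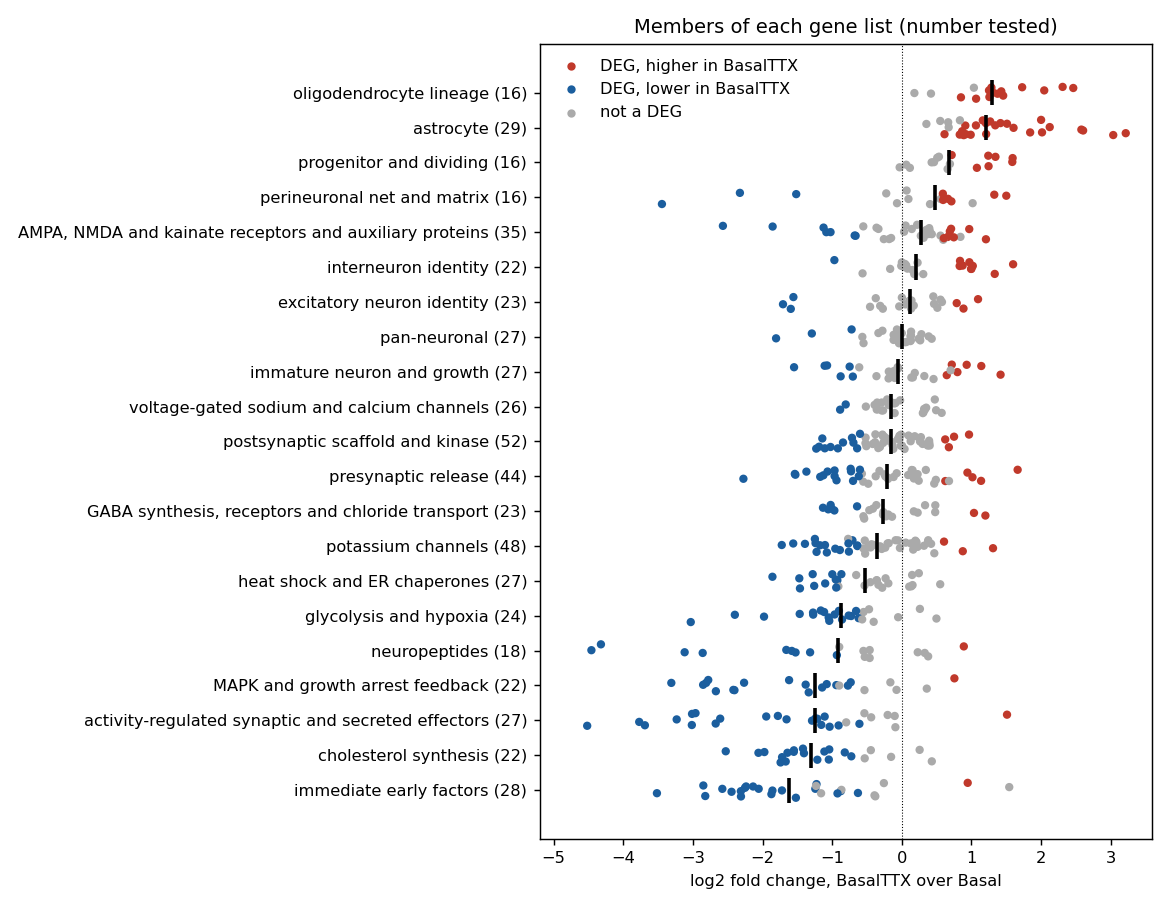
Log2 fold change of BasalTTX over Basal for each tested member of the gene lists (points, with DEG in color) and the list median (black bar), with the number tested in brackets. The microglial, vascular and sex-linked lists, with few genes tested, are not shown. Lists shown are ordered by median, from IEG transcription factors at -1.62 to the oligodendrocyte lineage at 1.30.

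At the synapse the changes went both ways, gene by gene. The list of AMPA, NMDA and kainate receptor genes and their auxiliary proteins also held Grm2, a metabotropic receptor gene. Of its members 35 were tested, of which 7 fell, 7 rose and 21 were no DEG, at a median of 0.27. Gria1, the AMPA receptor subunit GluA1, stood at 207, 203 and 175 CPM in Basal and 352, 306, 309 and 269.6 CPM in BasalTTX. Grin1, the obligatory NMDA receptor subunit, went the other way, from 238, 257 and 247 CPM to 105, 128.3, 121 and 130 CPM. Neither pair of groups overlapped, with log2 fold changes of 0.66 ± 0.12 and -1.02 ± 0.11. Without Basal replicate 5 the Gria1 change was 0.58, under the 1.5-fold limit. The kainate receptor partner Neto1 rose (0.75 ± 0.13), and the presynaptic metabotropic receptor Grm2 and the AMPA receptor partner Cnih3 fell (-2.57 ± 0.30 and -1.12 ± 0.21). Cnih2 was at 0.38 ± 0.11 and no DEG.

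Genes of inhibitory synapses leaned to loss. Of the GABA synthesis, receptor and chloride transport genes 23 were tested, of which 6 fell, 2 rose and 15 were no DEG, at a median of -0.27. Gabra5, the extrasynaptic GABA-A receptor subunit, measured 417, 375 and 422 CPM in Basal and 153, 153, 237 and 196 CPM in BasalTTX, a log2 fold change of -1.13 ± 0.14. Gphn, which encodes the scaffold protein gephyrin, measured 79.5, 66.2 and 64.6 CPM and 42.1, 31.8, 30.1 and 38.8 CPM, a log2 fold change of -0.97 ± 0.14. Neither gene overlapped between the groups. Gabbr2, a GABA-B receptor subunit, was a DEG at 1.20 ± 0.44 with overlapping groups, and its call was lost in 8 of 16 other settings, among them without BasalTTX replicate 1 or 4 or Basal replicate 1 or 5 (0.80 to 1.102). The GABA-synthesizing enzymes Gad1 and Gad2, at -0.37 ± 0.11 and 0.23 ± 0.10, were no DEG.

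Potassium channel transcripts that changed were mostly lower. Of the potassium channel genes 48 were tested, of which 16 fell, 3 rose and 29 were no DEG, at a median of -0.36. The inward rectifier Kcnj4 measured 132.1, 146.8 and 168 CPM in Basal and 34.9, 45.6, 62.3 and 57.4 CPM in BasalTTX. Every silenced library was lower than every Basal one, with a log2 fold change of -1.56 ± 0.14. Kcnf1, a silent Kv subunit, Kcnj3, a GIRK channel, and Kcnk2, a leak channel, changed by -1.72, -1.10 and -1.17. Kcnip2, a partner of A-type channels, and the sodium-activated channel Kcnt1 rose by 0.88 and 1.31. Of the voltage-gated sodium and calcium channel genes, which include the targets of TTX, 26 were tested, of which 2 fell, 0 rose and 24 were no DEG. The share that fell was 7.69%, against 33.3% of the potassium channel genes and 10.6% of all genes tested. Those that fell were Fgf12, a sodium channel partner, at -0.89 ± 0.13 and Cacnb4, a calcium channel subunit, at -0.81 ± 0.15.

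Release and scaffold genes shifted in the same mixed way. Of the presynaptic release genes 44 were tested, of which 15 fell, 5 rose and 24 were no DEG (median -0.22). The vesicle protein gene Rab3c measured 593, 615 and 546 CPM in Basal and 216, 207, 211 and 179.5 CPM in BasalTTX, and Syt4, a synaptotagmin of dense-core vesicles, 748, 887 and 773 CPM and 253, 281, 274 and 295 CPM. These were log2 fold changes of -1.53 ± 0.10 and -1.54 ± 0.11, with no overlap. The active zone scaffold Pclo changed by -1.17, while Syt17 and Syn3 rose by 1.66 and 1.14. Of the postsynaptic scaffold and kinase genes 52 were tested, of which 11 fell, 4 rose and 37 were no DEG (median -0.16). The calcium-dependent kinases Camkk2, Camk1g and Prkcb and the scaffold Dlg1 changed by -1.14, -1.11, -0.84 and -1.02. Baiap2, an actin regulator of spines, and Lrrc4b, a synaptic adhesion gene, rose by 0.97 and 0.75.

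Most pan-neuronal genes were no DEG, as were most of all genes tested (9421 of 12023). Of the pan-neuronal genes 27 were tested, of which 3 fell, 0 rose and 24 were no DEG, at a median of -0.0009. The share that fell, 11.1%, was close to the 10.6% of all genes tested, whereas 11% of all genes tested rose. The DEG were the neurofilament genes Nefl and Nefm, at -1.29 ± 0.14 and -1.81 ± 0.20, and the SNARE gene Snap25 at -0.72 ± 0.08, while Stmn2 was at -0.55 ± 0.09 and no DEG, but was one without BasalTTX replicate 3 (-0.63) or Basal replicate 5 (-0.603). Of the excitatory identity genes 23 were tested, of which 3 fell, 3 rose and 17 were no DEG. Each share, 13.04%, was also close to that of all genes tested. Slc17a6, the vesicular glutamate transporter VGLUT2, Neurod6 and Pou3f1 fell, with log2 fold changes of -1.71, -1.56 and -1.59, and the factors Neurod2 and Bcl11b rose by 1.09 and 0.89. Slc17a7, or VGLUT1, was at 0.11 ± 0.14 and no DEG. Of the interneuron identity genes 22 were tested, of which 1 fell, 9 rose and 12 were no DEG. Nos1, neuronal nitric oxide synthase, stood at 81.5, 85.7 and 92.1 CPM in Basal and 256, 228, 309 and 255 CPM in BasalTTX, a log2 fold change of 1.599 ± 0.15 with no overlap. The factors Sox6, which oligodendrocyte precursors also express, and Dlx1 and the calcium buffer Calb2 rose by 1.33, 1.02 and 0.999. In bulk RNA a change in the number of cells of a type and a change in RNA per cell cannot be told apart.

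Growth and matrix genes divided as well. Of the immature neuron and growth genes 27 were tested, of which 6 fell, 6 rose and 15 were no DEG. Nnat, an imprinted proteolipid of developing neurons, measured 2697, 3437 and 2856 CPM in Basal and 7637, 8070.4, 8392 and 7938 CPM in BasalTTX, a log2 fold change of 1.42 ± 0.11. The microtubule kinase Dclk1 and the growth cone protein Gap43 changed by -1.55 ± 0.09 and -1.11 ± 0.14, Nrep by -0.88 and the factor Sox11 by 0.80. Of the perineuronal net and matrix genes 16 were tested, of which 3 fell, 6 rose and 7 were no DEG. Acan, or aggrecan, the core proteoglycan of the net, fell from 25.6, 51.5 and 22.3 CPM to 4.61, 4.04, 2.10 and 1.80 CPM, a log2 fold change of -3.45 ± 0.35 on 3 to 7 counts in each silenced library. The proteases Adamts8 and Adamts1 changed by -2.33 ± 0.26 and -1.52 ± 0.24. Bcan, or brevican, which astrocytes and oligodendrocyte precursors make, rose (1.501 ± 0.13), as did Sparc (0.71 ± 0.14), and Hapln1 was at -0.22 ± 0.13 and no DEG.

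Outside the lists, or at their head, the 10 largest falls with every library apart and an average of at least 3 log2 CPM were Gabrq, Alkal2, Pthlh, Nms, Fndc9, Bdnf, Crh, Adcyap1, Nppc and Pdlim3. Alkal2, a ligand of the ALK and LTK receptors, measured 238, 305 and 185 CPM in Basal and 7.90, 4.62, 8.40 and 7.90 CPM in BasalTTX, a log2 fold change of -5.06 ± 0.24. Nppc, which encodes C-type natriuretic peptide, went from 88.3, 106 and 69.8 CPM to 8.55, 5.20, 2.10 and 2.87 CPM. For both genes the groups stood apart, which the rule required. Pthlh, the parathyroid hormone-like peptide, gave 6 counts over the silenced libraries and 246 over the Basal ones, a ratio of 34.1 (95% exact interval 15.5 to 93.9). Gabrq, the theta subunit of the GABA-A receptor, gave 3 against 158 counts, a ratio of 43.8 (95% exact interval 14.7 to 215). Nms, neuromedin S, gave 3 against 124 counts, a ratio of 34.4 (95% exact interval 11.5 to 169). Fndc9 gave 4 against 133, a ratio of 27.7 (95% exact interval 10.6 to 103), and Pdlim3 8 against 162, a ratio of 16.9 (95% exact interval 8.35 to 39.7). These ratios are Basal over BasalTTX and their intervals cover counting error only.

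The 10 largest rises by the same rule were Rasl10a, Matn2, Id3, Prelp, Slc44a5, Fam107a, Hrk, Smoc2, Slc25a18 and Enpp6. Rasl10a, a small GTPase gene, stood at 1.69, 0.736 and 0.742 CPM in Basal and 15.1, 15.6, 32.9 and 23.7 CPM in BasalTTX, a log2 fold change of 4.23 ± 0.47. Its Basal levels were near the floor, all under the 5 CPM that a gene had to pass in at least 2 samples. Hrk (chr5:118169764-118189478), a BH3-only gene of neuronal cell death, measured 22.8, 13.2 and 21.5 CPM and 133.6, 138, 141.4 and 133.2 CPM. Its silenced libraries were close to each other, with a log2 fold change of 2.81 ± 0.17 and an adjusted p of 5.7e-16 (edgeR). All were higher, which the rule required. Slc44a5, a choline transporter-like gene, measured 10.1, 8.10 and 10.4 CPM and 80.9, 69.3, 70.0 and 71.8 CPM. Fam107a, a gene of astrocytes and radial glia, and Enpp6, a marker of newly forming oligodendrocytes, had log2 fold changes of 2.85 ± 0.22 and 2.59 ± 0.39. Matn2, Prelp, Smoc2 and Slc25a18 had 3.26, 2.98, 2.65 and 2.60.

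Most astrocyte and oligodendrocyte lineage markers were higher in the silenced cultures. Of the astrocyte markers 29 were tested, of which 0 fell, 24 rose and 5 were no DEG, at a median of 1.21, and their summed level was 15859.8 to 17071 CPM in BasalTTX against 6416 to 7184 CPM in Basal. Gfap, the astrocyte filament, measured 99.8, 193 and 81.3 CPM in Basal and 749, 729.7, 533 and 954 CPM in BasalTTX. Aldoc, Apoe, Aqp4 and Id3 had log2 fold changes of 2.00, 1.21, 1.84 and 3.04. Of the oligodendrocyte lineage markers 16 were tested, of which 0 fell, 13 rose and 3 were no DEG (median 1.30), and the sums were 2645 to 2747 CPM and 971 to 1415 CPM, with Mobp and Opalin at 0 in all Basal libraries. Bcas1, Cnp, Gpr17 and Olig2 had 2.31, 1.43, 2.46 and 1.25. Of the progenitor and dividing cell markers 16 were tested, of which 0 fell, 7 rose and 9 were no DEG, with sums of 1474 to 1698 CPM against 628 to 786 CPM and log2 fold changes of 1.34 for Sox2, 1.59 for Pax6, 1.08 for Hes5 and 1.24 for Mki67.

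The pan-neuronal sum was 20802 to 22202 CPM in BasalTTX and 21818 to 22862 CPM in Basal, so these ranges overlap. With library sizes set to the pan-neuronal counts, 2615 genes were DEG, and 25 of 29 astrocyte markers rose and 19 of 28 IEG transcription factors fell. The excitatory identity sum was 6583 to 8614 CPM against 7735 to 8246 CPM, and the interneuron sum 1776 to 1902 CPM against 1267 to 1359.8 CPM. Microglial markers were near the limit of detection, with 4 of 16 tested, a sum of 36.4 to 43.9 CPM in BasalTTX and 65.5 to 70.9 CPM in Basal, and 2 of the 14 with any count at 0 in all silenced libraries (Tyrobp and Ctss) and 4 in all Basal ones (C1qb, Itgam, Tyrobp and Ctss). Cd68, a lysosomal marker of phagocytes, fell (-1.91 ± 0.22). Cx3cr1, the fractalkine receptor, gave 2 against 18 counts, a ratio of 7.49 (95% exact interval 1.79 to 66.6), and Csf1r was no DEG. The Cx3cr1 call was lost without BasalTTX replicate 1, 2 or 3 or Basal replicate 1 or 2 (fitted log2 fold change -2.72 to -2.38), and Csf1r became a DEG without BasalTTX replicate 3 (-1.51). Of the vascular and fibroblast markers 3 of 16 were tested and all 3, Igfbp7, Dcn and Rgs5, rose (1.07, 0.81 and 0.75), the last with overlapping groups. Without Basal replicate 2 or BasalTTX replicate 4 Dcn lost its call (0.69 and 0.63), as did Rgs5 (0.79 and 0.37), which also lost it without Basal replicate 1 (0.54) or BasalTTX replicate 3 (0.75). Of 16 other settings, Rgs5 lost its call in 10, Dcn in 3 and Igfbp7 in 1, with counts thinned to the smallest library (0.88). The vascular sums were 56.6 to 84.0 CPM and 33.2 to 39.7 CPM. Cdh5 and Vtn were at 0 in all silenced libraries, and Lum and Kcnj8 in all Basal ones. The log2 ratio of Xist to 4 Y-linked genes was 1.67 to 2.21 in BasalTTX and 0.94 to 1.23 in Basal, ranges that do not overlap. Xist and Ddx3y changed by 0.47 ± 0.15 and -0.50 ± 0.13, with adjusted p of 0.013 and 0.0028 (edgeR). Both fell short of the 1.5-fold limit and were no DEG. Ddx3y was one at -0.63 without BasalTTX replicate 3. The part of culture makeup in the changes above was not tested.

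**Figure D3:**
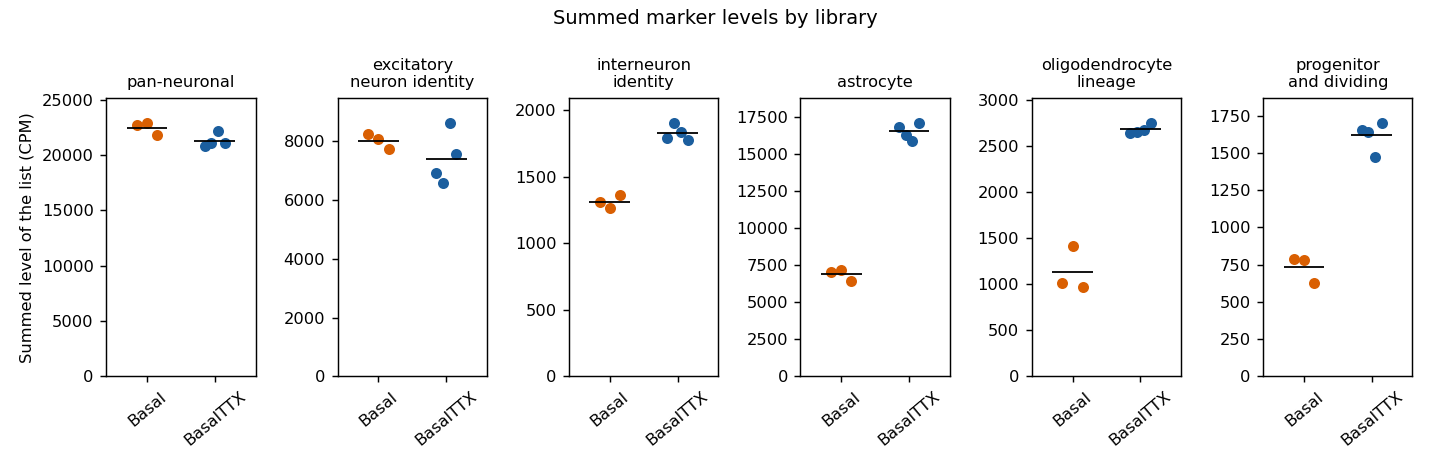
Summed level (CPM, axes from 0) of 6 marker lists in each of the 3 Basal and 4 BasalTTX libraries, with a line at each mean. The pan-neuronal and excitatory sums overlap between the groups, whereas the interneuron, astrocyte, oligodendrocyte lineage and progenitor sums are higher in every silenced library.

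Other libraries that had been in TTX also had high glial sums. In the 8 TTXw libraries, which had also spent 48 h in TTX, the astrocyte sum was 14795 to 28063 CPM and the oligodendrocyte lineage sum 2459 to 4660.3 CPM. In the 12 Bic and KCl libraries, which had not been in TTX, they were 7326 to 12107 CPM and 779.8 to 1817 CPM. The neuronal sums differed as well. The pan-neuronal sum was 14456 to 21787 CPM in the TTXw libraries and 23820 to 25582 CPM in the Bic and KCl ones. The excitatory identity sum was 5653 to 8291 CPM and 9137 to 10252 CPM. None of these sums overlapped between the sets, whereas the interneuron sum did (1132 to 1951 CPM and 1369 to 1793 CPM). The time in TTX and the wells cannot be told apart.

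A further pair of comparisons that share no library with BasalTTX or Basal asked whether the silenced genes move when activity returns or rises. The first was TTXw at 180 min (n = 3) over TTXw at 15 min (n = 3) in the same experiment. The column of TTXw replicate 1 at 180 min is spelled 2DIV, and its label of 21DIV was used. This comparison gave 1537 DEG of 12023 (12.8%), 782 higher (6.5%) and 755 lower (6.28%). Of the 1278 genes lost under TTX, 118 rose by 180 min (9.23%, against 6.5% of all genes tested). Another 158 fell further (12.4%, against 6.28%). They made up 15.1% of the genes that rose and 20.9% of the genes that fell. Of the 1324 gained under TTX, 212 rose further (16.0%, and 27.1% of the genes that rose) and 77 fell (5.82%, and 10.2% of the genes that fell). The median log2 fold change was -0.10 for the lost and 0.25 for the gained genes, against 0.01 over all genes tested. Of the IEG transcription factors 28 were tested, of which 0 fell, 11 rose and 17 were no DEG, with a median log2 fold change of 0.64. Of the MAPK and growth arrest feedback genes 22 were tested, of which 0 fell, 7 rose and 15 were no DEG. Of the secreted and synaptic effectors 27 were tested, of which 4 fell, 4 rose and 19 were no DEG, and of the neuropeptide genes 18 were tested, of which 7 fell, 1 rose and 10 were no DEG. Of the pan-neuronal genes 27 were tested, of which 9 fell, 0 rose and 18 were no DEG (median -0.34), and of the astrocyte markers 29 were tested, of which 0 fell, 10 rose and 19 were no DEG (median 0.51). The pan-neuronal sum was 15011, 14456 and 16790 CPM in the 3 libraries at 180 min and 21452, 21559 and 21787 CPM in the 3 at 15 min. Its part in these counts was not tested.

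Gene by gene the return had different depths. Atf3 rose from 14.6 ± 6.65 CPM at 15 min to 179 ± 28.7 CPM by 180 min (both SD, n = 3), to above its Basal level of 47.7 ± 10.99 CPM. The log2 fold change was 3.52 ± 0.21. Nr4a3 rose from 33.3 ± 3.001 to 107 ± 9.91 CPM, toward its Basal level of 144.4 ± 17.6. Fos was at 159 ± 37.8 CPM at 45 min (n = 2) and at 30.9 ± 11.2 CPM by 180 min. Bdnf rose from 28.2 ± 10.1 to 62.8 ± 18.7 CPM (log2 fold change 1.19 ± 0.24), which left it under its Basal level of 609 ± 193 CPM. Scg2 fell further, at -0.75 ± 0.17, and Vgf, at -0.53 ± 0.17, and Rgs4, at -0.45 ± 0.13, were no DEG. Among metabolic genes Msmo1 rose from 162 ± 17.2 to 431 ± 42.8 CPM and Slc2a1 from 23.9 ± 3.89 to 72.2 ± 15.3 CPM, whereas Hmgcs1 was no DEG at 0.16 ± 0.14. Hrk, raised by silencing, was also no DEG here at -0.30 ± 0.15, while Slc44a5 fell, with a log2 fold change of -2.02 ± 0.20.

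**Figure D4:**
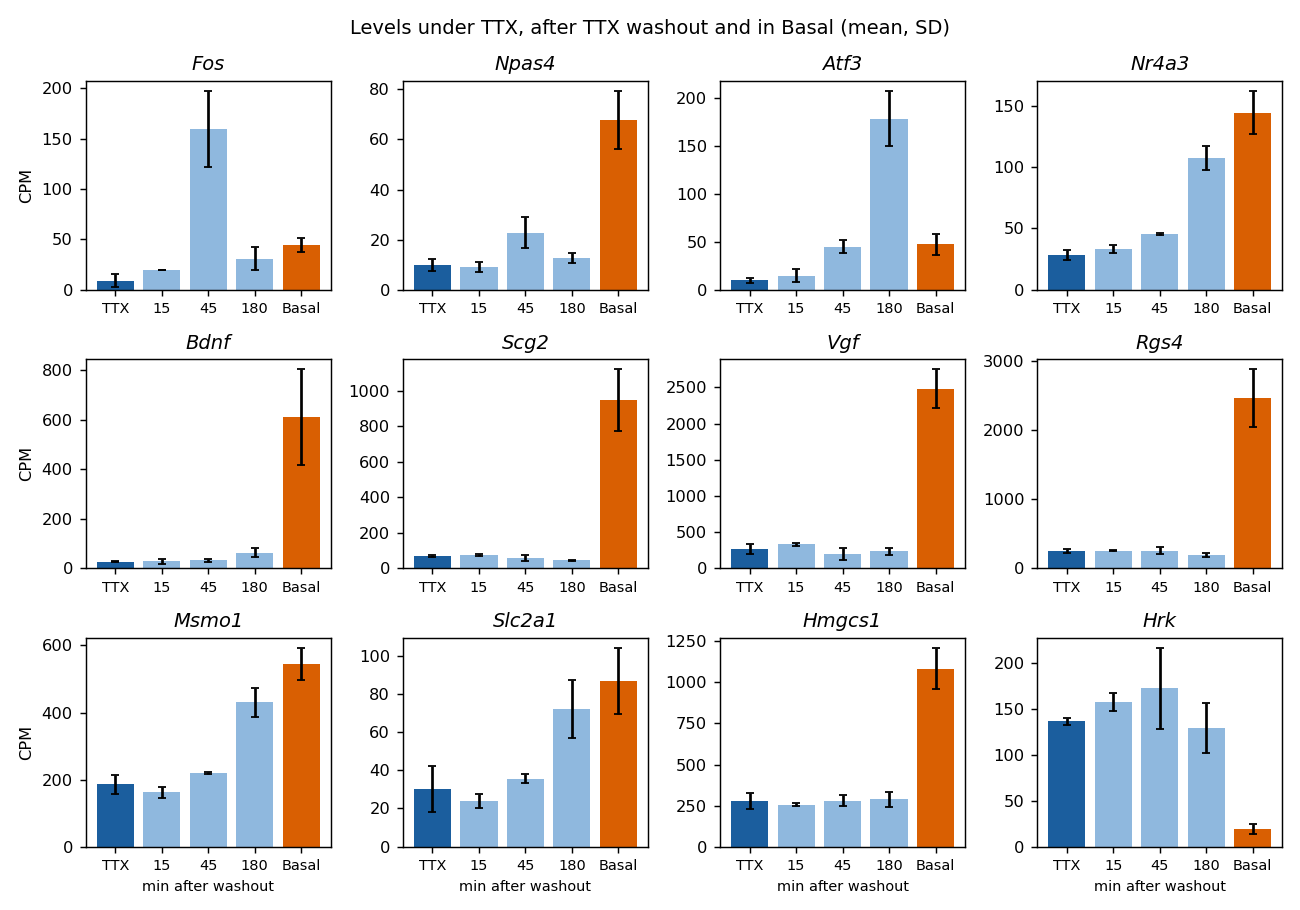
Level (CPM, mean and SD, axes from 0) of 12 genes in BasalTTX (n = 4), at 15 (n = 3), 45 (n = 2) and 180 min (n = 3) after TTX washout, and in Basal (n = 3). Atf3 and Nr4a3 climb by 180 min, Fos is highest at 45 min, and the 180 min levels of Scg2, Vgf, Rgs4 and Hmgcs1 lie far below Basal.

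The second comparison raised activity instead: mature cultures (23DIV) of the maturation experiment with 50 uM Bic and 2.5 mM 4-aminopyridine for 180 min (4APBic, n = 2) over their Basal libraries (n = 3). Both 4APBic libraries carry the code letter E and the Basal ones C, C and D, so whatever the letter marks cannot be told apart from the treatment. Bic blocks GABA-A receptors and 4-aminopyridine blocks potassium channels, so that both increase firing. It gave 1670 DEG of 11742 (14.2%), 868 higher (7.39%) and 802 lower (6.83%). Of the 11285 genes tested in both, 7.46% were higher and 6.98% lower. Of the 1255 lost under TTX, 351 were higher (27.97%, and 40.4% of the genes that rose) and 42 lower (3.35%). Genes gained under TTX gave 235 of 1193 lower (19.7%, and 29.3% of the genes that fell) and 17 higher (1.42%). The median log2 fold change was 0.39 for the lost and -0.44 for the gained genes, against -0.02 over all genes tested. Single libraries weighed on these counts. Leaving out 4APBic replicate 2 left a single 4APBic library, so only its total of DEG is given, further below. Without Basal replicate 2 the lost genes gave 262 higher (20.9%) and the gained genes 149 lower (12.6%). Over all genes tested in the 4APBic comparison these shares were 4.81% and 4.28%. Without Basal replicate 3 the lost genes gave 269 higher (21.4%, against 4.81%) and the gained genes 158 lower (13.3%, against 4.51%).

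The activity lists that fell under TTX had most of their DEG higher after 4APBic. Of the IEG transcription factors 26 were tested, of which 1 fell, 23 rose and 2 were no DEG, of the feedback genes 22 were tested, of which 0 fell, 15 rose and 7 were no DEG, and of the secreted and synaptic effectors 27 were tested, of which 1 fell, 14 rose and 12 were no DEG. Scg2, Vgf and Bdnf changed by 1.82 ± 0.18, 1.42 ± 0.18 and 1.21 ± 0.25, all DEG, and Nptx1, at 0.75 ± 0.28, was no DEG. Of the glycolysis and hypoxia genes 24 were tested, of which 0 fell, 11 rose and 13 were no DEG, and of the heat shock and ER chaperones 27 were tested, of which 0 fell, 13 rose and 14 were no DEG. Of the cholesterol synthesis genes 22 were tested, of which 5 fell, 0 rose and 17 were no DEG, with a median of -0.27 and Hmgcs1 at 0.23 ± 0.11. Gabra5, lost under TTX, fell here as well, at -1.26 ± 0.20. Nos1 and Hrk, gained under TTX, were no DEG at 0.01 ± 0.23 and -0.13 ± 0.37. Glial markers moved here too. Of the astrocyte markers 28 were tested, of which 8 fell, 0 rose and 20 were no DEG (median -0.39) and of the pan-neuronal genes 27 were tested, of which 2 fell, 3 rose and 22 were no DEG (median -0.11), and the part of these markers in the counts was not tested.

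**Figure D5:**
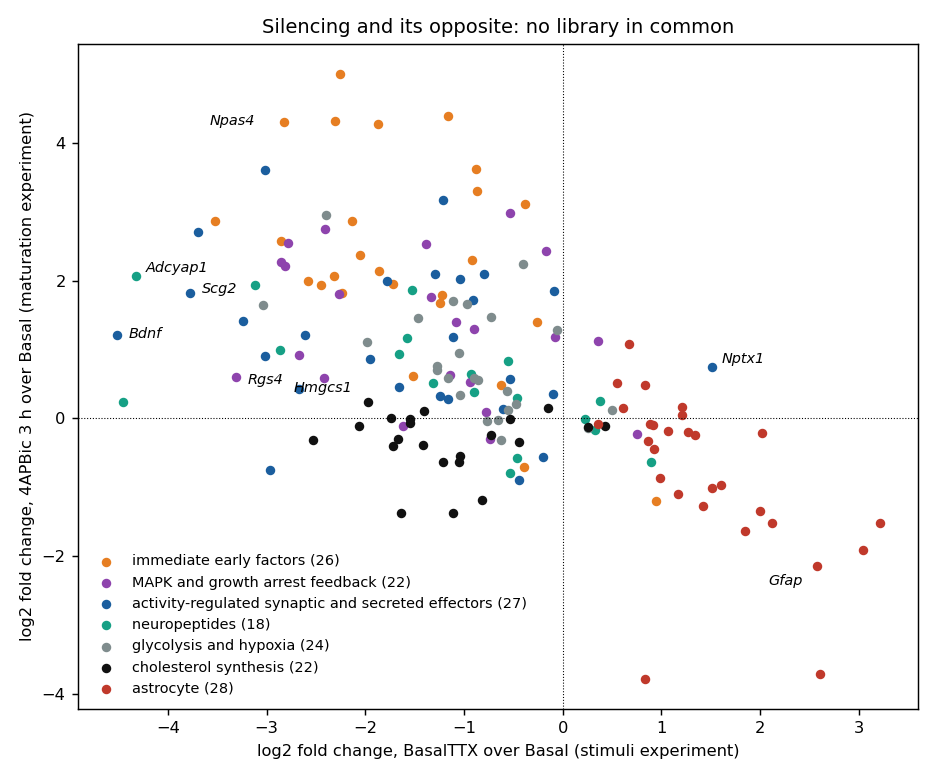
Log2 fold change under silencing (x axis, BasalTTX over Basal) against that after 180 min of 4APBic (y axis) for the members of 7 lists, with the number of genes plotted in brackets. No library enters both axes. Most IEG, feedback and effector genes lie in the upper left quadrant, most cholesterol synthesis genes lie at or below 0 on the y axis, and astrocyte markers lie to the right.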

How the data were processed

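The deposited files hold raw counts per RefSeq transcript, which the authors made from CEL-Seq2 reads of the 3′ end with STAR on mm10 and the End Sequence Analysis Toolkit. Whether molecular identifiers were collapsed is not given in the sources used here. Each gene took its transcript with the most counts. In the stimuli experiment 80.9% of 96722 transcripts matched GRCm38.p6, and unmatched ones held 19.3% of the counts. They were left out, as no gene name was paired with them. Libraries of an experiment were fitted together with edgeR 4.0.16 (R 4.3.3) by the quasi-likelihood test on TMM-scaled counts of genes over 5 CPM in at least 2 samples, without a block. A DEG needed a p below 0.05 after Benjamini-Hochberg adjustment and a fold change of 1.5 or more. SE is the log2 fold change over the root of F. Ratios of pooled counts have exact 95% intervals that cover counting error only.

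The gene lists and named members were chosen with earlier results of these data known. The text names up to 5 members of a list by smallest adjusted p, up to 3 that went the other way or passed no threshold, and the 10 largest rises and falls with groups apart and an average of at least 3 log2 CPM. On data simulated for the silencing comparison over 11557 genes, 88.2% of changes of 1 log2 unit and 100% of changes of 2 were recovered, with 7 unchanged genes called. The changes were placed in 110 and 90 genes, none of them of low mean count. Recovery among genes with few counts was not tested. Alternatives were DESeq2 1.42.0, other size factors and filters, thinning, fewer groups, a replicate block, summed transcripts, pan-neuronal library sizes and leaving out each library. Depth differed between the groups, and counts thinned to the smallest library are given as an alternative. Some list members are not reported here.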

Additional observations from a re-analysis of the deposited data

Results flagged for a closer look

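In 10 of 150 levels tested in the 4 BasalTTX libraries (named genes and summed marker lists), 1 library stood far from the other 3 by Dixon's criterion at the 95% level, where chance gives about 1 in 20. Replicate 2 was highest for Fos, at 19.1 CPM against 5.39 to 6.30 in the others, and lowest for Alkal2, at 4.62 CPM against 7.90 to 8.40. Replicate 3 was highest for Nr4a2, at 6.30 CPM against 3.59 to 4.04, for Calb2, at 120.4 CPM against 98.7 to 101.7, and for Pthlh, at 1.40 CPM against 0.578 to 0.718. Replicate 4 was highest for Bcl11b, at 84.7 CPM against 74.0 to 75.7, for Smoc2, at 23.0 CPM against 13.8 to 15.0, and for Cx3cr1, at 0.718 CPM with no count in the others. Replicate 1 was lowest for Kcnip2, at 72.4 CPM against 110.6 to 110.9, and for Tpi1, at 286.9 CPM against 327.5 to 330.3.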

How the results depend on the processing

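The silencing comparison gave 2602 DEG and between 2166 and 2622 under 9 other settings (DESeq2 2376, thinning to the smallest library 2210, summed transcripts 2208), and 2308 to 2541 without 1 library. With pan-neuronal library sizes the DEG split into 1573 higher and 1042 lower genes, against 1324 and 1278, and the median log2 fold change of all genes was 0.09. The withdrawal comparison gave 1537 DEG, 1296 to 1534 under other settings and 1278 to 1477 without 1 library. The 4APBic comparison gave 1670 DEG and 1275 to 1748 under other settings, but 677 to 1986 without 1 library, with 677 without 4APBic replicate 2, 1065 without Basal replicate 2, 1093 without Basal replicate 3 and 1986 without Basal replicate 1. Where a single library remained in a group, it was taken to vary like the other groups. In the silencing comparison, no direction reversed under its settings over 142 named genes, and single genes were not recomputed for the other comparisons. Of 2268 values, 2225 kept their call, 32 lost it and 11 gained it, and the cause was not tested.

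The replicate numbers of BasalTTX and Basal (numbered by their titles) shared only 1 and 2, and their deviations correlated at 0.041 and 0.056, so the numbers were not taken as pairs. With the replicate block the silencing comparison gave 2166 DEG, the withdrawal comparison 1520 and the 4APBic comparison 1547. Under silencing, Klf10 (0.74, adjusted p 0.053) and Kcnt1 (1.02, adjusted p 0.082) lost their calls with the block, which left 0 of 28 IEG transcription factors and 1 of 48 potassium channel genes higher. Dcn, Gabbr2 and Rgs5 lost theirs too.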
